A study of Mus musculus with 36 samples.

Results

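The genes described are 6 members of the neurotrophin system, namely the ligand genes Bdnf and Ntf3, the receptor genes Ntrk2, Ntrk3 and Ngfr, and Sort1, which encodes the sorting receptor sortilin. They were found as the rows of the deposited count table whose gene symbol in the GENCODE annotation of GRCm38 is 1 of these 6 names, so they are 6 of the 55492 entries of the table, and all 6 were among the 20355 entries that had a mean count above 5 and were tested. RNAseq had been performed on cultures of C57EDCX cells, dissociated mouse cortical cells of embryonic day 18, in 3 groups of 12 libraries. Control cultures received fresh medium, the DEX group received dexamethasone, an agonist of the glucocorticoid receptor, at 1 µM, and the DEX + RU-486 group received dexamethasone together with mifepristone (RU-486), an antagonist of that receptor, each at 1 µM. Treatment began at day 11 in vitro and lasted 72 h. The labels place 6 libraries of each group in batch 1 and 6 in batch 2, and give the RNA integrity number (RIN) of each library. The methods call the libraries experimental replicates, and no source used here says whether they came from separate cultures, so the p-values measure the spread between libraries, which may be technical. No group received RU-486 alone.

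Neurotrophins are secreted growth factors that keep neurons alive and shape their dendrites and synapses. They are made as precursors that proteases trim to the mature form. Mature BDNF binds the receptor tyrosine kinase TrkB, encoded by Ntrk2, and neurotrophin-3, encoded by Ntf3, binds TrkC, encoded by Ntrk3. The p75 receptor, encoded by Ngfr, binds mature neurotrophins and, together with sortilin, their precursors. Sortilin also steers BDNF into the regulated secretory route of neurons. Transcription of Bdnf in cortical neurons starts from several alternative first exons and follows synaptic activity, and Bdnf has long been studied in stress and glucocorticoid exposure. Ntrk2 and Ntrk3 each produce full-length receptors and truncated forms without the kinase. The counts here are per gene, so these forms cannot be told apart.

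On GRCm38 the 6 genes lie at chr2:109674700-109727007 on the plus strand (Bdnf), chr6:126101412-126166910 on the minus strand (Ntf3), chr13:58806569-59133970 on the plus strand (Ntrk2), chr7:78175959-78738012 on the minus strand (Ntrk3), chr11:95568818-95587735 on the minus strand (Ngfr) and chr3:108284082-108361511 on the plus strand (Sort1). All are annotated as protein coding. Exons of an antisense gene overlap exons of Bdnf (Gm45346) and of Sort1 (Gm12523). These antisense genes had 242 and 190 counts in total over all 36 libraries, and no source used here gives a strand setting for the counting, so reads of these pairs cannot be told apart.

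Because DEX acts through a receptor that binds DNA, the sequences before the transcription starts of these genes were searched for its recognition letters. RefSeq windows of 300 bases on GRCm38.p6, from 250 bases before to 50 bases after a start, were at hand for 7 starts of Bdnf, 2 of Ntf3, 1 of Ngfr and 1 of Ntrk2, 11 in all. Ntrk3 and Sort1 had no window. The full palindrome, which is AGAACA, 3 bases of any kind and TGTTCT, was in 0 of the 11 windows and in 0.00913% of all 32851 windows, and its looser form, GNACA, 3 bases of any kind and TGTNC, was in 0 of the 11 and in 0.475% of all. Both strands were read. AGAACA alone, the first part of the palindrome, was in 3 of the 11 windows, all of them Bdnf, and in 19% of all windows. The cyclic AMP response element was searched in full only as the exact letters TGACGTCA, which were in 0 of the 11 and in 1.79% of all windows. Full-length forms with a letter changed were not searched, so this does not show that the windows lack the element. The first part of TGACGTCA, TGACG, was in 1 of the 11, a Bdnf window, on the minus strand, and in 20.8% of all. These 4 stretches of 30 bases are shown, read 5′ to 3′ on the plus strand, with the matching letters in capitals. They lie at chr2:109674451-109674480, chr2:109676782-109676811, chr2:109709192-109709221 and chr2:109692389-109692418.
Bdnf start 1, AGAACA beginning 237 bases before the start: cagttgttccctAGAACAagtcactcccgc
Bdnf start 2, AGAACA beginning 240 bases before the start: tgtaccatttAGAACAagaggatggaggga
Bdnf start 6, AGAACA beginning 179 bases before the start: tgttagtagttcAGAACAcaatcagtatct
Bdnf start 3, TGACG read on the minus strand and shown as its complement, beginning 35 bases before the start: tatgacagctcaCGTCAaggcagcgtggag
A match is a run of letters and says nothing of binding, and the counts do not resolve which start of Bdnf was used.

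The libraries held between 12.1 and 82.4 M counts. Batch 2 held 6 libraries with a RIN under 3, 2 of each group, and 12 with a RIN between 7.4 and 8.7, and the 3 strata (batch 1, batch 2 of RIN 6 or above, batch 2 of RIN under 3) were the covariate of the model unless stated otherwise. In batch 1, RIN was 7.8 to 9.2 in control, 3.9 to 7.8 in DEX and 5.6 to 7.9 in DEX + RU-486, and depth in M counts ranged from 24.2 to 82.4 for control, from 12.1 to 22.3 for DEX and from 17.4 to 26.7 for DEX + RU-486. Every DEX library of batch 1 thus had fewer counts than every control library and a RIN no higher than any of them, so that for DEX against control in batch 1 treatment, RIN and depth cannot be told apart. For DEX + RU-486 and control these ranges overlapped, but in RIN only because DEX + RU-486 14 (7.9) was above control 1 (7.8). The other control libraries had a RIN of 8.4 to 9.2, above every DEX + RU-486 library. Without control 1, treatment and RIN thus cannot be told apart in this comparison either. The cultures carried neuronal transcripts: the 6 neuron markers together reached 2346 to 9876 CPM (read counts scaled to a common library size with TMM factors) in every library. Microglia markers were near 0. Their 4 tested genes summed to between 0.12 and 5.89 CPM, and the defining genes P2ry12 and Tmem119 had too few counts to be tested. In bulk RNA, fewer cells of a type and less RNA per cell cannot be told apart.

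In batch 1, 1 library of each group stood apart in the ligand genes. In control 1, DEX 7 and DEX + RU-486 13, which carry the lowest library number of their group, Bdnf was at 17.7, 52.3 and 33.2 CPM, whereas the other 15 libraries of the batch were at 1.62 to 6.76 CPM. Ntf3 was at 6.79, 1.89 and 2.85 CPM in these 3 libraries and at 8.03 to 22.3 CPM in the other 15. Neither gene overlapped between the 3 libraries and the rest. The other 4 genes did overlap, although Ntrk2 was the highest of its group in each of the 3 (336, 300 and 280 CPM). Over all tested genes, 612 were higher and 283 lower in these 3 libraries than in all other libraries of the batch. Their RIN was 7.8, 6.2 and 6.6 and their depth 32.1, 13.7 and 25.2 M counts, both within the range of the other libraries of the batch. What set them apart was not tested, and each result is given below with and without them where they matter.

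**Figure D1:**
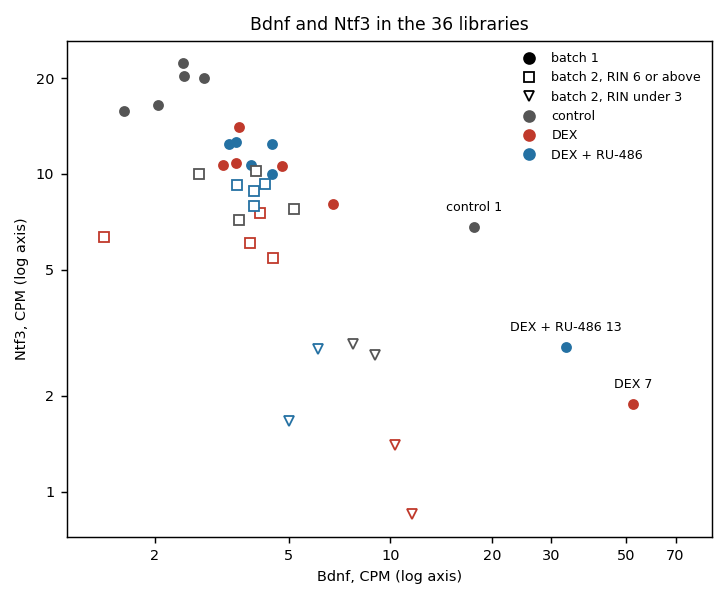
Expression of Bdnf (x axis, CPM, log scale) and Ntf3 (y axis, CPM, log scale) in each of the 36 libraries, with colour for the treatment and symbol for the batch and RIN stratum. Control 1, DEX 7 and DEX + RU-486 13 lie at the far right with 17.7, 52.3 and 33.2 CPM of Bdnf, and the libraries of RIN under 3 lie between 0.85 and 2.91 CPM of Ntf3.

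Compared per kilobase of exon, the 6 genes differed widely in level. In control libraries, Ntrk2 had 13.3 ± 3.42 CPM per kb (SD, n = 12), Sort1 9.39 ± 2.6, Ntf3 6.92 ± 4.01 and Ntrk3 4.95 ± 1.06. These 4 overlapped with their neighbours in this order. The order of Ntf3 and Ntrk3 depended on the stratum, as control means of Ntf3 were 9.89 CPM per kb in batch 1, 5.11 in batch 2 at RIN 6 or above and 1.63 at RIN under 3, and those of Ntrk3 were 5.8, 4.33 and 3.65. Bdnf had 0.821 ± 0.738 CPM per kb, and its highest control library, at 2.85, was below the lowest control value of Ntrk3, at 3.59, but above the lowest of Ntf3, at 1.57. Ngfr was the lowest with 0.109 ± 0.0604 CPM per kb, and its range (0.0575 to 0.224) did not reach the lowest value of Bdnf (0.261). Ntrk2 and Ntrk3 thus gave more reads per kilobase than Bdnf in all control libraries. Exon length here is that of all annotated exons, so these levels depend on which isoforms were present. Ngfr rested on 3 to 59 counts per library.

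Across the 36 libraries, with the 3 strata as covariate, DEX was accompanied by lower expression of Sort1, Ntf3 and Ntrk3 and higher expression of Ngfr, while Bdnf and Ntrk2 did not pass the test. In edgeR's quasi-likelihood test, adjusted over all tested genes with the Benjamini-Hochberg method, 4 of the 6 genes thus passed an adjusted p of 0.05, against 8.94% of all tested genes (1820 of 20355, of which 39.3% were higher in DEX with TMM factors and 56.7% of 1442 with upper-quartile factors). With DEX + RU-486 against control, 1 of the 6 passed, Sort1, which was lower, against 1.46% of all genes. Between DEX + RU-486 and DEX, 0 of the 6 passed, against 0.00491% of all genes (1 gene, and 1026 at an unadjusted p under 0.05). In that comparison only Ngfr among the 6 had an unadjusted p under 0.05 (p = 0.0457 in edgeR's test, adjusted p = 0.95). The comparisons of DEX and of DEX + RU-486 with control share their control libraries.

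These counts depended on how RNA quality entered the model. With batch as the only covariate, 0 of the 6 genes passed for DEX (0.0246% of all genes) and 0 for DEX + RU-486 (0%, with 2203 genes at an unadjusted p under 0.05). With the strata and RIN as covariates 0 of the 6 and 0% of all genes passed in edgeR's test in either comparison, while 1867 genes for DEX and 2147 for DEX + RU-486 had an unadjusted p under 0.05. The log2 fold changes with batch alone were -0.71 for Ntf3, -0.34 for Ntrk3, 1.22 for Ngfr and -0.53 for Sort1, near those with the strata. With RIN as a covariate they were -0.51, -0.06, 1.24 and -0.31, so that Ngfr kept its size and Ntrk3 had the smallest of the 4. With the 28 libraries of RIN 6 or above, all but Bdnf passed for DEX, 5 of 6, against 19.7% of all genes. Sort1 and Ntrk2 passed for DEX + RU-486 in those libraries, against 8.86%, and 0 of 6 passed between DEX + RU-486 and DEX (0% of all genes, with 1817 at an unadjusted p under 0.05). Without control 1, DEX 7 and DEX + RU-486 13, 4 of 6 passed for DEX, with Ntrk2 in place of Ntrk3, against 5.25% of all genes, and 0 of 6 for DEX + RU-486, against 0.531%.

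**Figure D2:**
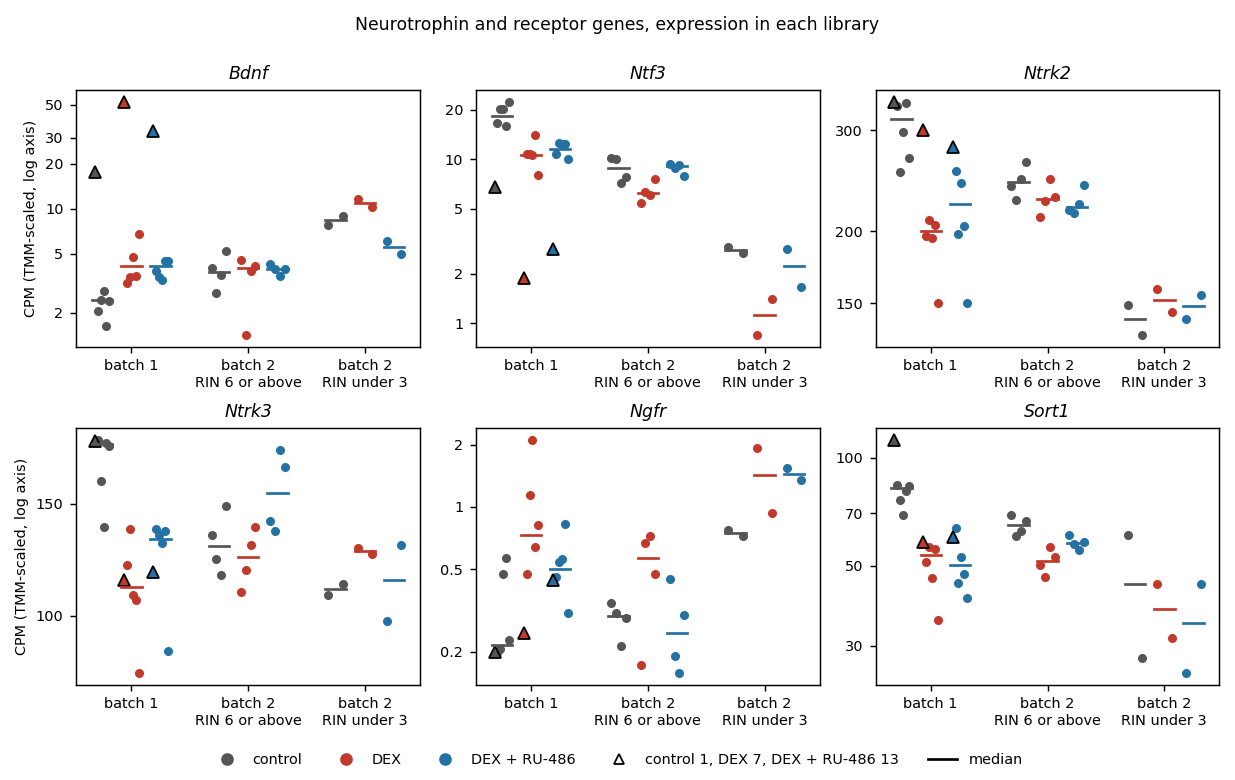
Expression of each gene (y axis, CPM, log scale) in every library, by stratum along the x axis and by treatment in colour, with a bar at the median and triangles for control 1, DEX 7 and DEX + RU-486 13. Sort1 lies at 69.1 to 112 CPM in batch 1 control libraries and at 35.3 to 58.4 in batch 1 DEX libraries, and Ntf3 falls to 0.85 to 2.91 CPM in the libraries of RIN under 3.

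Bdnf, the ligand of TrkB, did not pass for DEX or for DEX + RU-486 over all libraries. In batch 1 its lowest, median and highest values were 1.62, 2.43 and 17.7 CPM in control, 3.18, 4.15 and 52.3 CPM in DEX, and 3.32, 4.15 and 33.2 CPM in DEX + RU-486. The highest value of each group was that of the library that stood apart. In batch 2 at RIN 6 or above, Bdnf was at 3.99, 2.71, 3.57 and 5.19 CPM in control, at 4.5, 1.42, 3.84 and 4.11 CPM in DEX, and at 4.24, 3.94, 3.51 and 3.93 CPM in DEX + RU-486. These 3 groups overlapped, and DEX 28, at 1.42 CPM, was the lowest of all 36 libraries. The pairs of RIN under 3 were at 7.73 and 8.99 CPM in control, 11.6 and 10.3 in DEX, and 6.12 and 5 in DEX + RU-486.

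Over all libraries the log2 fold change of Bdnf was 0.68 for DEX (95% interval -0.23 to 1.59, adjusted p = 0.364) and 0.32 for DEX + RU-486 (-0.58 to 1.22, adjusted p = 0.769). Both intervals run from a fall to a rise. Single libraries moved the value for DEX, which was -0.02 without DEX 7 and 1.04 without control 1. With no filter on low counts the value was 0.71 and passed (adjusted p = 0.000763, SE 0.16). Over both batches without the 3 libraries that stood apart, Bdnf had 0.43 for DEX (SE 0.19, adjusted p = 0.173, edgeR). For DEX + RU-486 it had 0.25 in that fit (SE 0.19, adjusted p = 0.571). In batch 1 with all of its libraries, the log2 fold change for DEX was 1.38 (SE 0.78, adjusted p = 0.227). In batch 1 without the 3 libraries that stood apart, control libraries were at 1.62 to 2.81 CPM and DEX libraries at 3.18 to 6.76 CPM, and DEX differed from control by 0.97 on the log2 scale (SE 0.24, adjusted p = 0.00872, edgeR). The 3 libraries were left out for their own Bdnf and Ntf3 values, which narrows the spread of these 2 genes, so the smaller SE and p follow in part from that choice and support nothing. All 6 genes passed in that fit for DEX, against 19.5% of all genes, and all but Ngfr passed for DEX + RU-486, against 15.5%. Among batch 2 libraries of RIN 6 or above the log2 fold change of Bdnf for DEX was -0.14 (SE 0.29), the opposite sign.

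Ntf3, which encodes neurotrophin-3, was lower in DEX. In batch 1 its lowest, median and highest values were 6.79, 18.3 and 22.3 CPM in control, 1.89, 10.6 and 14 CPM in DEX, and 2.85, 11.5 and 12.6 CPM in DEX + RU-486. The lowest value of each group was again that of the library that stood apart, and in the other 15 libraries controls were at 15.8 to 22.3 CPM, DEX libraries at 8.03 to 14 CPM and DEX + RU-486 libraries at 10 to 12.6 CPM. Over all of batch 1 the groups overlapped, and the 3 libraries were set aside for their own Ntf3 and Bdnf values. At RIN 6 or above in batch 2, Ntf3 was at 10.2, 9.97, 7.17 and 7.73 CPM in control, at 5.43, 6.31, 6.08 and 7.53 CPM in DEX, and at 9.31, 8.84, 9.24 and 7.92 CPM in DEX + RU-486. There, 3 of the 4 DEX libraries were below every control library, and every DEX + RU-486 library was above every DEX library, which held for 4.47% of all tested genes.

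Over all libraries Ntf3 had a log2 fold change of -0.77 for DEX (SE 0.21, 1.71-fold lower, adjusted p = 0.0213, edgeR) and of -0.43 for DEX + RU-486 (SE 0.21, adjusted p = 0.28). Between DEX + RU-486 and DEX the log2 fold change was 0.35 (95% interval -0.09 to 0.78, adjusted p = 0.95), and in batch 2 at RIN 6 or above it was 0.48 (0.15 to 0.81, adjusted p = 0.105). The call for DEX held in each of 36 refits that left out 1 library, with log2 fold changes from -0.86 to -0.67. Without the 3 libraries that stood apart it was -0.74 (SE 0.12, adjusted p = 0.00445, edgeR). They were left out for their own Ntf3 and Bdnf values, so the smaller SE and p follow in part from that choice and support nothing. In batch 1 alone the log2 fold change was -0.82 and did not pass (adjusted p = 0.0999). The call was also lost with batch as the only covariate (adjusted p = 0.235) and with no covariate (0.325). The same held with the strata and RIN as covariates (0.508) and in batch 2 at RIN 6 or above (0.15). The libraries of RIN under 3 had the lowest Ntf3 of batch 2, at 2.91 and 2.69 CPM in control, 0.85 and 1.4 in DEX, and 2.82 and 1.67 in DEX + RU-486.

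Ntrk2, which encodes TrkB, had the highest level of the 6. In batch 1 its lowest, median and highest values were 254, 314 and 336 CPM in control, 150, 200 and 300 CPM in DEX, and 150, 223 and 280 CPM in DEX + RU-486. Only DEX 7 among the DEX libraries exceeded the lowest control, whereas DEX + RU-486 13 and 14 did so in the third group. In batch 2 at RIN 6 or above, Ntrk2 was at 240, 227, 247 and 264 CPM in control, at 212, 226, 247 and 229 CPM in DEX, and at 218, 215, 223 and 241 CPM in DEX + RU-486, and the 3 groups overlapped. The pairs of RIN under 3 were at 149 and 132 CPM in control, 159 and 145 in DEX, and 141 and 155 in DEX + RU-486. The log2 fold change over all libraries was -0.29 for DEX (95% interval -0.48 to -0.09, adjusted p = 0.0524) and -0.26 for DEX + RU-486 (-0.46 to -0.07, adjusted p = 0.13). For DEX the test was passed in the libraries of RIN 6 or above (-0.30, adjusted p = 0.0136), in batch 1 alone (-0.50, adjusted p = 0.0233) and in 8 of 36 refits without 1 library. Among batch 2 libraries of RIN 6 or above the value was -0.08 (-0.24 to 0.07).

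Ntrk3, the gene of TrkC, was lower in DEX over all libraries. In batch 1 its lowest, median and highest values were 138, 186 and 189 CPM in control, 81.3, 111 and 137 CPM in DEX, and 87.9, 132 and 137 CPM in DEX + RU-486. Every DEX and every DEX + RU-486 library of batch 1 was thus below every control library. At RIN 6 or above in batch 2, Ntrk3 was at 134, 123, 116 and 149 CPM in control, at 109, 118, 129 and 138 CPM in DEX, and at 141, 136, 182 and 171 CPM in DEX + RU-486, where the DEX + RU-486 libraries reached the highest values. The pairs of RIN under 3 were at 108 and 112 CPM in control, 128 and 125 in DEX, and 98.3 and 129 in DEX + RU-486, with both DEX libraries above both control libraries. For DEX the log2 fold change was -0.34 over all libraries (SE 0.11, adjusted p = 0.0392), -0.62 in batch 1 (SE 0.12) and -0.07 in batch 2 at RIN 6 or above (SE 0.11). For DEX + RU-486 it was -0.16 over all libraries (SE 0.11, adjusted p = 0.434), -0.48 in batch 1 (SE 0.12, adjusted p = 0.0132) and 0.28 in batch 2 at RIN 6 or above (SE 0.11, adjusted p = 0.588). The call for DEX over all libraries held in 21 of 36 refits without 1 library, and without the 3 libraries that stood apart the adjusted p was 0.0939. It was also lost with upper-quartile factors (adjusted p = 0.0692), with at least 10 counts in every library (0.053) and with only the 2 groups compared (0.0574).

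Ngfr, the gene of the p75 receptor, was near the limit of detection. In batch 1 its lowest, median and highest values were 0.198, 0.217 and 0.566 CPM in control, 0.247, 0.731 and 2.11 CPM in DEX, and 0.308, 0.501 and 0.825 CPM in DEX + RU-486, and the groups overlapped. In batch 2 at RIN 6 or above it was at 0.343, 0.307, 0.214 and 0.291 CPM in control, at 0.172, 0.667, 0.724 and 0.473 CPM in DEX, and at 0.45, 0.191, 0.158 and 0.302 CPM in DEX + RU-486. All DEX libraries there but DEX 27, with 5 counts, were above every control library. At RIN under 3, Ngfr was at 0.773 and 0.724 CPM in control, 1.93 and 0.936 in DEX, and 1.55 and 1.35 in DEX + RU-486. Both treated pairs there were above the control pair. The log2 fold change over all libraries was 1.18 for DEX (SE 0.32, 2.26-fold higher, adjusted p = 0.0213) and 0.51 for DEX + RU-486 (SE 0.33, adjusted p = 0.428). Without DEX 10, the library with 2.11 CPM, the value was 0.96 and the adjusted p was 0.0569, and in the other 35 refits without 1 library the call for DEX held. With no filter on low counts the adjusted p was 0.112, and a filter of 10 counts in every library removed the gene.

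Beside Ngfr, which glia of several kinds are known to express, some markers of glia also rose with DEX over all libraries. In that fit 8.94% of all tested genes passed for DEX, and 39.3% of these were higher in DEX. Of the 8 tested markers of the oligodendrocyte lineage 4 rose (among them Olig1, Mbp and Mog, log2 fold changes 1.04, 1.23 and 0.94), and 0 fell. Their summed level in batch 1 was 61.4 to 277 CPM in control, 466 to 2121 in DEX and 216 to 917 in DEX + RU-486, and in batch 2 at RIN 6 or above 395 to 514, 638 to 1023 and 134 to 384 CPM. Of the 7 astrocyte markers 3 rose (Aldh1l1, Aldoc and Gja1) and 0 fell, with sums of 32.1 to 46.2 CPM in control and 35.3 to 72.7 CPM in DEX of batch 1, and 34.1 to 45.1 and 45.6 to 70.8 CPM in batch 2 at RIN 6 or above. Of the 4 markers of dividing cells Cdk1 rose, and their sum in batch 1 was 2.43 to 12.6 CPM in control and 8.15 to 60.7 CPM in DEX. In batch 2 at RIN 6 or above it was 10.7 to 18.4 CPM in control and 12.8 to 22.9 CPM in DEX, with overlap. Of the 6 neuron markers 3 fell (Rbfox3, Tubb3 and Stmn2) and 0 rose, and their sum in batch 1 was 3338 to 4284 CPM in control and 2498 to 3368 CPM in DEX. Among batch 2 libraries of RIN 6 or above that sum was 2434 to 2709 and 2346 to 2618 CPM. In the pairs of RIN under 3 these sums did not follow DEX in the same way. The oligodendrocyte lineage sum was 462 to 2293 CPM in control and 588 to 1007 CPM in DEX, that of dividing cells 40.5 to 61.4 and 36.4 to 47.1 CPM, and that of astrocytes 45.8 to 76 and 31.2 to 111 CPM. Neuron markers there summed to 5652 to 6230 CPM in control and 6757 to 9876 CPM in DEX, above every library of RIN 6 or above in batch 2. No marker of the 5 excitatory neuron, 5 inhibitory neuron, 4 microglia, 5 fibroblast and mural or 5 endothelial genes tested passed for DEX. The last 2 lists stayed at or below 15.8 CPM in sum in every library, and the excitatory and inhibitory lists reached 431 to 801 and 65.3 to 477 CPM. In batch 1 the inhibitory sum was 72.7 to 140 CPM in control, 93.7 to 272 in DEX and 95.4 to 209 in DEX + RU-486. It was 108 to 272 CPM in the 3 libraries that stood apart and 72.7 to 151 CPM in the others. In batch 2 at RIN 6 or above it was 358 to 465, 388 to 477 and 123 to 427 CPM in the 3 groups. The part of these cell types in the values of the 6 genes was not tested.

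Sort1, which encodes sortilin, was lower in DEX over all libraries, with the smallest p of the 6 genes, and passed in batch 1 alone but not in batch 2. In batch 1 its lowest, median and highest values were 69.1, 82.1 and 112 CPM in control, 35.3, 53.4 and 58.4 CPM in DEX, and 40.6, 50.1 and 63.6 CPM in DEX + RU-486. Every treated library of batch 1 was below every control library. At RIN 6 or above in batch 2 it was at 69.3, 60.5, 62.7 and 66.8 CPM in control, at 50.4, 46.7, 56.6 and 53 CPM in DEX, and at 60.9, 57.5, 55.5 and 58.1 CPM in DEX + RU-486. Every DEX library was again below every control library, whereas 1 DEX + RU-486 library, at 60.9 CPM, exceeded the lowest control. The pairs of RIN under 3 were at 61 and 27.8 CPM in control, 44.4 and 31.6 in DEX, and 25.2 and 44.4 in DEX + RU-486, and they overlapped.

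The log2 fold change of Sort1 for DEX was -0.52 over all libraries (SE 0.11, 1.44-fold lower, adjusted p = 0.00815), -0.70 in batch 1 (SE 0.13, adjusted p = 0.00171) and -0.31 in batch 2 at RIN 6 or above (SE 0.08, adjusted p = 0.0636). With all libraries of batch 2 it was -0.28 (adjusted p = 0.785). Its call over all libraries held in all 36 refits without 1 library, which kept the strata as covariate. The call was lost with batch as the only covariate (adjusted p = 0.0791, edgeR) and with no covariate (0.136). It was also lost with the strata and RIN as covariates (-0.31, adjusted p = 0.363). For DEX + RU-486 the log2 fold change was -0.47 over all libraries (SE 0.11, adjusted p = 0.0319), -0.69 in batch 1 (SE 0.13) and -0.15 in batch 2 at RIN 6 or above (SE 0.08, adjusted p = 0.692). That call held in 25 of 36 refits without 1 library and was lost without the 3 libraries that stood apart (-0.42, adjusted p = 0.0633). Between DEX + RU-486 and DEX, Sort1 had a log2 fold change of 0.05 with an interval from -0.17 to 0.28.

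**Figure D3:**
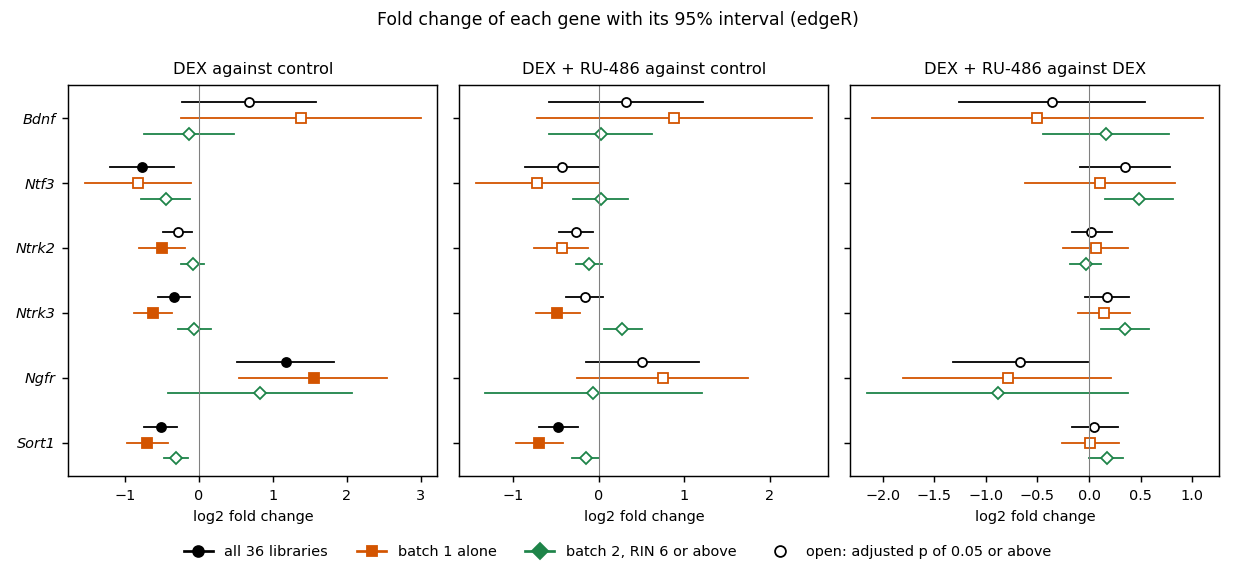
Log2 fold change (x axis) of each gene with its 95% interval for the 3 comparisons, over all 36 libraries, in batch 1 alone and in batch 2 at RIN 6 or above. Filled symbols have an adjusted p under 0.05, which no gene reached in batch 2, while Sort1 lies at -0.52, -0.70 and -0.31 for DEX in the 3 fits.

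Taken batch by batch, 4 of 6 genes passed for DEX in batch 1 (Ntrk2, Ntrk3, Ngfr and Sort1, against 19% of all genes) and 2 of 6 for DEX + RU-486 (Ntrk3 and Sort1, against 15.4%). In batch 2 at RIN 6 or above, 0 of 6 passed for DEX (0.565% of all genes), 0 for DEX + RU-486 (0.00491%) and 0 between DEX + RU-486 and DEX (1.56%). At an unadjusted p under 0.05 in that batch, Ntf3 and Sort1 were lower in DEX (p = 0.0098 and 0.000784 in edgeR's test), among 3499 genes at that threshold in either direction. At the same threshold Ntrk3 was higher in DEX + RU-486 than in control (p = 0.0172, with 1536 genes). Between DEX + RU-486 and DEX, Ntrk3 (0.35, p = 0.00469, adjusted p = 0.0879), Ntf3 (0.48, p = 0.00707) and Sort1 (0.17, p = 0.0449) were higher with RU-486 at that threshold, with 3929 genes. Groups without overlap were counted by the same rule for all genes. In batch 1, 2 of 6 genes were below control in every DEX library (6.66% of all genes) and in every DEX + RU-486 library (5.16%), in both cases Ntrk3 and Sort1. Among batch 2 libraries of RIN 6 or above it was 1 of 6 for DEX, Sort1 (7.03%), and 0 of 6 for DEX + RU-486 (4.11%).

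The difference of the effect between the batches was tested itself. The effect in batch 2 at RIN 6 or above minus that in batch 1 did not pass for any of the 6 genes, for DEX (0.565% of all genes passed), for DEX + RU-486 (0.201%) or between DEX + RU-486 and DEX (0%). The smallest adjusted p was that of Ntrk3 for DEX + RU-486, with a difference of 0.77 on the log2 scale (95% interval 0.40 to 1.14, p = 0.00018 and adjusted p = 0.0635 in edgeR's test). For DEX, Ntrk3 differed by 0.57 (0.20 to 0.95, adjusted p = 0.13) and Ntrk2 by 0.44 (0.04 to 0.84, adjusted p = 0.308). For Sort1 the difference was 0.41 for DEX (-0.07 to 0.89) and 0.54 for DEX + RU-486 (0.06 to 1.03, adjusted p = 0.296), and for Bdnf -1.49 (-3.53 to 0.55).

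Members also differed with RIN and with batch. Within batch 2, libraries of RIN under 3 against those of RIN 6 or above had lower Ntf3 (log2 fold change -2.01, SE 0.30, 4.03-fold), Ntrk2 (-0.65, SE 0.12) and Sort1 (-0.57, SE 0.14), and higher Ngfr (1.75, SE 0.38, 3.37-fold), with adjusted p-values from 6.98e-07 to 0.000738. Thus 4 of 6 genes passed, where 55.4% of all genes did, a share near that of the members. Bdnf (1.09, SE 0.54, adjusted p = 0.0807) and Ntrk3 (-0.22, SE 0.13, adjusted p = 0.146) did not. For all 6 genes the sign was that of the DEX effect over all libraries, and in batch 1 the DEX libraries also had the lower RIN. The parts of RIN and of DEX in the values of batch 1 cannot be told apart. Against batch 1, batch 2 at RIN 6 or above had negative log2 fold changes for Bdnf (-1.08, SE 0.42, adjusted p = 0.0386) and Ntf3 (-0.57, SE 0.19, adjusted p = 0.0173). These were 2 of 6 genes against 37.6% of all genes. For Bdnf the direction rested on the 3 libraries of batch 1 that stood apart. Its median was 3.52 CPM in batch 1 and 3.94 CPM in batch 2 at RIN 6 or above. Without the 3 libraries the batch 1 mean of Bdnf was 3.51 CPM, below the 3.75 CPM of batch 2 at RIN 6 or above.

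**Figure D4:**
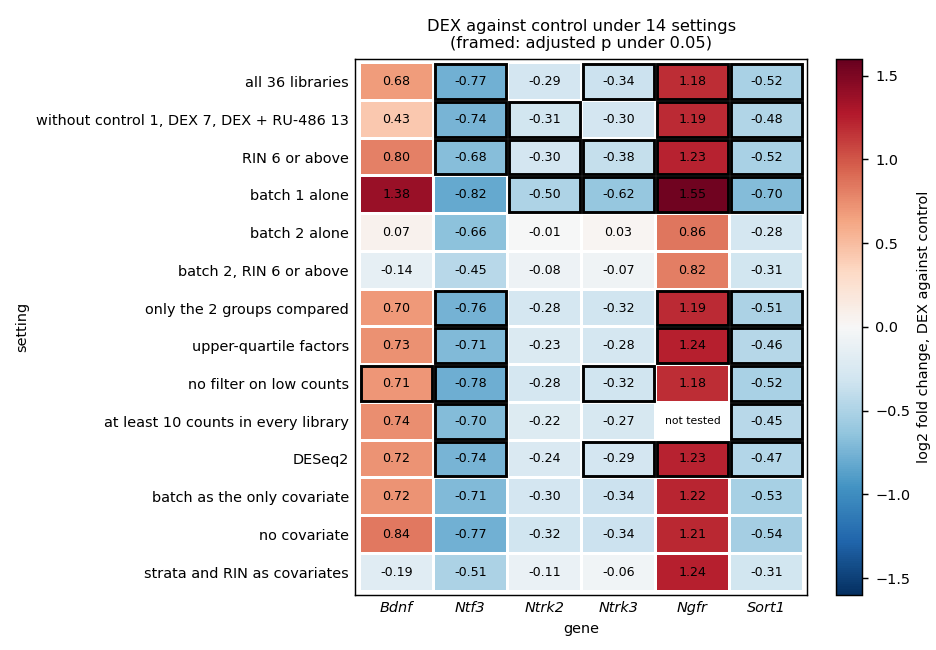
Log2 fold change of each gene for DEX against control (colour and printed value) under 14 settings of the libraries, covariates, scaling, filter and tool, with a frame where the adjusted p was under 0.05. The sign of Ntf3, Ntrk2 and Sort1 was the same in each setting shown, as was that of Ngfr where it was tested (not with at least 10 counts in every library), frames are missing with batch as the only covariate, with no covariate, with RIN as a covariate and in batch 2, and Bdnf ranges from -0.19 to 1.38.

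Other genes of the pathway were taken from lists, and their counts are given beside the median log2 fold change, which over all tested genes was -0.01 for DEX and 0.02 for DEX + RU-486. Of 8 tested other neurotrophins and receptors, 3 fell with DEX and 0 rose (37.5%, where 8.94% of all tested genes passed), with a median of -0.25. They were Kidins220 (-0.31), a scaffold that binds Trk receptors and p75, and Rtn4r (-0.51) and Lingo1 (-0.44), which form the Nogo receptor complex with p75. Of the sortilin relatives, Sorl1 had -0.23 (adjusted p = 0.149), and Sorcs1, Sorcs2 and Sorcs3 had values from -0.26 to 0.12, none of which passed.

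Among 14 tested genes of proneurotrophin processing and sorting, 1 rose and 3 fell with DEX (28.6%, median -0.03). Plat, the tissue plasminogen activator, rose by 0.87 on the log2 scale (SE 0.19, adjusted p = 0.00906), from 2.09 to 3.98 CPM in batch 1 control libraries to 6.63 to 11.8 in DEX libraries, while in batch 2 at RIN 6 or above the ranges overlapped (4.41 to 5.28 and 4.76 to 9.64 CPM). Serpini1, which encodes neuroserpin, an inhibitor of that protease, fell by 0.76 (SE 0.17), and Furin, a protease that cleaves precursors, fell by 0.39 (SE 0.09). Furin was at 21.6 to 31.2 CPM in control and at 16.8 to 25.6 CPM in DEX in batch 1, with overlap, and at 25.5 to 27.6 and 16.8 to 23.7 CPM in batch 2 at RIN 6 or above, without overlap, as were 7.03% of all genes. The third gene that fell was Cpe (-0.42, adjusted p = 0.0235), named outside the rule for naming genes after its value was seen.

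Of 41 genes of Trk adaptors and signalling, 2 fell and 0 rose (4.88%, below the share of all genes, median -0.13), namely Crk (-0.33) and Nras (-0.36). Of 22 tested genes of p75 signalling, 1 rose and 3 fell (18.2%, median -0.13). Bex1, an interactor of p75, rose by 0.32, Adam10, a sheddase, fell by 0.45, and the kinase gene Mapk8 fell by 0.37. Mapk10 (-0.31) was the other. Of 18 regulators of Bdnf transcription, 3 fell and 0 rose (16.7%, median -0.19), namely Mef2d (-0.28), Camk4 (-0.40) and Mef2c (-0.40). Nr3c1, the glucocorticoid receptor gene, had -0.30 (adjusted p = 0.152) and Creb1 -0.25 (adjusted p = 0.0653).

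The 20 genes that BDNF is known to induce had a positive median for DEX, 0.54, while Bdnf itself did not pass. Of these 4 rose and 0 fell (20%). They were Nptx1 (0.62), Nptx2 (1.09) and Egr1 (1.11), and Arc (1.34, adjusted p = 0.0256), which the naming rule did not include. Without control 1, DEX 7 and DEX + RU-486 13 the median was 0.47, and 4 rose (20%), Arc, Egr1, Egr2 and Nptx2, where 5.25% of all tested genes passed. Nptx2 was at 0.537 to 1.9 CPM in control and 1.2 to 8.89 CPM in DEX of batch 1, and at 1.69 to 2.99 and 2.2 to 3.68 CPM in batch 2 at RIN 6 or above, so that its groups overlapped in both. Of 26 tested other growth factor genes of the brain, 1 rose and 2 fell for DEX (11.5%, near the 8.94% of all genes, median 0.04). For DEX + RU-486, 1 rose and 2 fell (11.5%, where 1.46% of all genes passed, median 0.03). These 2 comparisons share their control libraries. Nrg1, which encodes neuregulin, had 0.60 for DEX and 0.64 for DEX + RU-486, Manf -0.38 and -0.49, and Il6st, a receptor subunit for ciliary neurotrophic factor, -0.37 and -0.48. In the other 7 lists 0 genes passed for DEX + RU-486, with medians of -0.18 for the other neurotrophins and receptors, -0.06 for processing and sorting, -0.13 for Trk adaptors, -0.10 for p75 signalling, -0.10 for regulators of Bdnf, 0.37 for genes induced by BDNF (16 of 20 positive) and 0.12 for the glucocorticoid receptor targets, and in all 8 lists 0 passed between DEX + RU-486 and DEX.

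As a check of the treatment, 10 targets of the glucocorticoid receptor were read as a list. Of these 1 rose with DEX, Per1 (0.40, SE 0.13, adjusted p = 0.0492), and 0 fell (10%, near the 8.94% of all tested genes). The median was 0.28, with positive values in 9 of 10. The other 9 did not pass. Among these Zbtb16 (0.59), Nfkbia (0.53) and Klf9 (0.51) had the highest values, with adjusted p-values of 0.0521, 0.0862 and 0.0756, and Fkbp5 (0.03), Sgk1 (0.04) and Tsc22d3 (0.28) had lower ones. Without the 3 libraries that stood apart, 3 of the 10 rose, Per1, Zbtb16 and Klf9. The median was then 0.23, with positive values in 7 of 10. In that fit 5.25% of all tested genes passed for DEX. The counts for DEX in the other lists were then 3 of 8 (37.5%) for other neurotrophins and receptors and 3 of 14 (21.4%) for processing and sorting. Trk adaptors had 3 of 41 (7.32%), here above the share of all genes, and p75 signalling had 2 of 22 (9.09%). Regulators of Bdnf had 1 of 18 (5.56%) and growth factors 2 of 26 (7.69%). Among the growth factors Manf was the 1 gene that passed for DEX + RU-486, where 0.531% of all tested genes did.

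**Figure D5:**
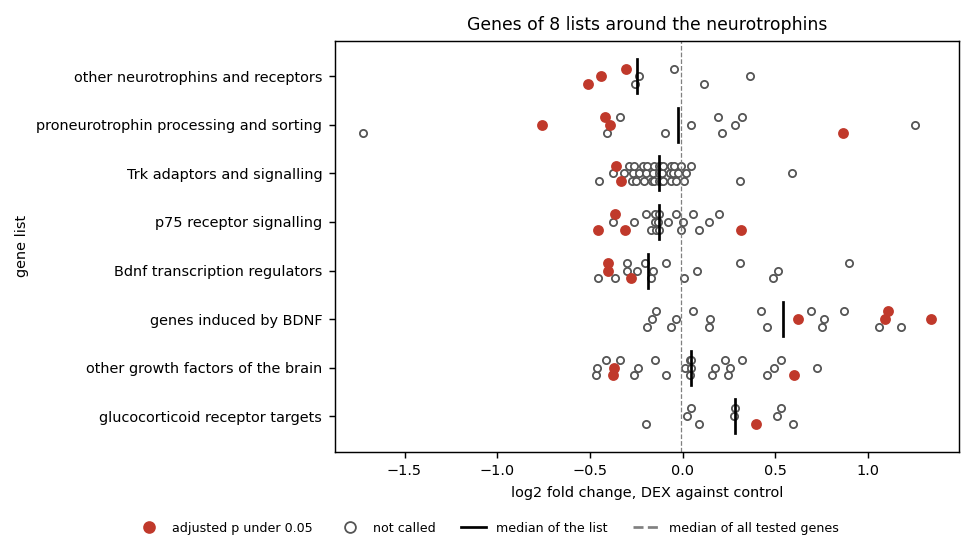
Log2 fold change for DEX against control (x axis) of the tested genes of each of 8 lists (y axis), with filled points for an adjusted p under 0.05, a bar at the median of the list and a dashed line at the median of all tested genes (-0.01). The genes induced by BDNF have the highest median, 0.54, and the other neurotrophins and receptors the lowest, -0.25.

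The genes whose pattern was most like that of each gene were taken over the 28 libraries of RIN 6 or above, from log2 CPM with the batch means subtracted. These values of r are descriptions over libraries that share batches and treatments. For Bdnf they were Nr4a3 (r = 0.92), Pls3 (0.91) and Dusp6 (0.90), which rested on the libraries that stood apart, as without these 3 the values over 25 libraries were 0.62, 0.23 and 0.54. For Ntf3 they were Sfrp1, Aldh1a3 and Sparcl1 (0.97, 0.96 and 0.94, and 0.80, 0.80 and 0.59 without the 3 libraries). Ntrk2 was most like Ppm1e, Syt1 and Oxct1 (0.95, 0.94 and 0.93, and 0.94, 0.93 and 0.92 without them). Among the genes most like Ntrk3 were Dlg2 and Adam23 (0.91 and 0.90, and 0.89 for each without them), and Sort1 most like Dgkd, Ndrg3 and Atrn (0.95, 0.94 and 0.94, and 0.94 for each without them). Since the 3 libraries were set aside for their Bdnf and Ntf3 values, lower values of r for these 2 genes without them follow from that choice. Without the 3 libraries, Sfrp1, Aldh1a3 and Sparcl1 were at ranks 2, 3 and 997 of 12273 genes for Ntf3. Nr4a3, Pls3 and Dusp6 were at ranks 62, 2181 and 191 for Bdnf. Ppm1e, Syt1 and Oxct1 were at ranks 2, 5 and 29 for Ntrk2, and the 3 genes of Sort1 at ranks 10, 17 and 18. Ngfr, with a mean of 0.611 CPM, was below the 1 CPM that this measure required.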

How the data were processed

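The data were 36 RNAseq libraries of cortical cultures. The values the authors deposited are raw counts, whole reads assigned to each gene, in 1 table. Per the labels and the methods of the paper, the authors aligned reads to GRCm38 with HISAT2 2.1.0 and counted them with Subread 1.5.0-p2. A second alignment, to a composite genome, is also described, and which of them the table holds is not given in the sources used here, nor are the annotation release and strand setting. The labels give poly(A) selection, the paper a total RNA library. Of the 55492 entries, 55141 matched GENCODE M21, which gave symbols and coordinates. Every column was mapped to a library.

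Entries with a mean count above 5 (20355) entered 1 model of all groups with the 3 strata as covariate, fitted by edgeR 4.0.16 (R 4.3.3) using TMM factors and its quasi-likelihood F test. Adjusted p-values are Benjamini-Hochberg values over all tested entries, and a gene passed under 0.05. The SE is the log2 fold change divided by the square root of F, and intervals cover 95%. Log2 CPM had a prior count of 2. On simulated counts for DEX against control (20355 genes), 85 of 100 genes changed 2-fold, 99 of 100 changed 4-fold and 6 of 20155 unchanged genes were called. They were drawn gene by gene around stratum means, with no effect of RIN within a stratum and no libraries that stood apart. The changed genes had a mean above 1 CPM, and changes below 2-fold were not simulated. The rate of false calls in these data therefore cannot be read from them. Depth was 12.1 to 82.4 M counts, which limits Ngfr most.

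Genes named are the 6 members, up to 3 per list and comparison with the smallest p among those that passed, and the 3 protein-coding genes most like each member at 1 CPM or above. Genes named outside this rule, chosen after their values were seen, are Cpe, Arc, Egr2, Mapk10, the sortilin relatives, Nr3c1, Creb1 and the glucocorticoid receptor targets other than Per1. A few genes that this rule or the lists include are not reported here. The members and lists were chosen with earlier results of these data known. The alternatives were 12 other settings and leaving out each library (DESeq2 1.42.0 among the settings), and 4 settings were added after the data were seen, which leave out control 1, DEX 7 and DEX + RU-486 13 or take batch 1 at RIN 6 or above. Figures were drawn with matplotlib 3.10.9.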

Additional observations from a re-analysis of the deposited data

Results flagged for a closer look

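Single libraries lay far from the others of their group and stratum, by Dixon's criterion on log2 CPM, in 8 of 36 groups of 4 to 6 libraries. Chance gives about 1 in 20 for independent groups, and 6 of the 8 came from the same 3 libraries. Bdnf was high in control 1 (17.7 CPM, the other 5 at 1.62 to 2.81), in DEX 7 (52.3 CPM, the others at 3.18 to 6.76) and in DEX + RU-486 13 (33.2 CPM, the others at 3.32 to 4.47) of batch 1. Ntf3 was low in the same libraries, at 6.79 CPM in control 1 (the others at 15.8 to 22.3), 1.89 CPM in DEX 7 (8.03 to 14) and 2.85 CPM in DEX + RU-486 13 (10 to 12.6). In batch 2 at RIN 6 or above, Bdnf was low in DEX 28 (1.42 CPM, the other 3 at 3.84 to 4.5). Ntrk3 was low in DEX + RU-486 18 of batch 1 (87.9 CPM, the others at 117 to 137), a library of RIN 5.6.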

How the results depend on the processing

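For DEX against control, 4 of 6 genes passed (1820 genes in all). The number was 0 with batch as the only covariate (5 genes), with no covariate (0), with strata and RIN as covariates (0), in batch 2 alone (0) and in batch 2 at RIN 6 or above (115), and 2 with at least 10 counts in every library (1760 of 11666). Leaving out 1 library gave 2 to 5 members and 782 genes (without control 2) to 3098 (without control 20). For DEX + RU-486 against control, 1 of 6 passed (298 genes). The number was 0 with batch alone, no covariate, strata and RIN, or batch 2 alone (0 genes each in edgeR's test, where 546 to 2203 had an unadjusted p under 0.05), in batch 2 at RIN 6 or above (1), with only the 2 groups compared (122) and without control 1, DEX 7 and DEX + RU-486 13 (108). It was 2 at RIN 6 or above (1804), in batch 1 alone (3131), in batch 1 at RIN 6 or above (2741) and at RIN 6 or above without the 3 libraries (1659), and 5 in batch 1 alone without them (3147). Leaving out 1 library gave 0 to 1 members and 36 (without control 2) to 1509 genes (without control 20). DESeq2 called the same number of members in each comparison, with 2396 of 16394, 856 of 16001 and 9 of 20334 genes. It gave no p for Bdnf in any comparison and no adjusted p for Ngfr for DEX + RU-486. With no filter 2224, 986 and 118 of 45544 genes passed, and the 4 members called for DEX held Bdnf in place of Ngfr. Between DEX + RU-486 and DEX 0 members passed in every setting.

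Signs turned for values that had not passed, and for Ntrk3 (DEX, batch 2 alone, 0.03). With strata and RIN as covariates, Bdnf was at -0.19 for DEX, -0.18 for DEX + RU-486 and 0.02 between them, Ntrk3 at 0.00 for DEX + RU-486, and Ntrk2 and Sort1 at -0.04 and -0.02 between DEX + RU-486 and DEX. In batch 2 at RIN 6 or above, Bdnf was at -0.14 for DEX and 0.16 between DEX + RU-486 and DEX, Ntf3, Ntrk3 and Ngfr at 0.03, 0.28 and -0.06 for DEX + RU-486, and Ntrk2 at -0.03 between DEX + RU-486 and DEX. In batch 2 alone, Bdnf and Ntrk3 were at -0.15 and 0.21 for DEX + RU-486 and Ntrk2 at -0.04 between DEX + RU-486 and DEX. Between these 2 groups, Bdnf was at 0.08 at RIN 6 or above without the 3 libraries and Sort1 at -0.01 in batch 1 at RIN 6 or above. Leaving out 1 library gave Bdnf -0.02 to 1.04 for DEX, -0.20 to 0.68 for DEX + RU-486 and -0.95 to 0.41 between them, and Ntrk2 -0.03 to 0.07 between them. The cause was not tested. No paired analysis was run because the library numbers are not shared between groups, and a block by order within the group was not tried. Low counts limit Ngfr, and 4 libraries per group limit batch 2.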
